A study of Mus musculus with 6 samples.

Results

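The excitatory postsynaptic scaffold, adaptor and CaMKII genes were examined in RNA sequencing data from the medial prefrontal cortex (mPFC) of *Shank3* TG and WT mice. They comprise 38 genes, fixed as a list of symbols without the *Shank* genes themselves, and all 38 were found by Ensembl identifier among the 18254 genes of the deposited table. The mice were males of 10 to 12 weeks on a C57BL/6J background. The *Shank3* TG mice carry an EGFP-*Shank3* transgene, in which a green fluorescent protein is fused to Shank3, and the WT mice were their littermates without it. The promoter of the transgene is not given in the sources used here, and reads from it and from the mouse gene are not separated in the table. There were 6 libraries, numbered 1 to 3 within each genotype (TG-1, TG-2, TG-3, WT-1, WT-2, WT-3), and values of 3 libraries are given in that order. Each was made from the mPFC of 2 mice of the same genotype pooled into 1 RNA sample, so that a replicate is a pool. The data are a measure of RNA in bulk tissue, in which fewer cells of a type and less RNA per cell cannot be told apart.

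Beneath the membrane of an excitatory synapse, the postsynaptic density is built in layers. MAGUK proteins hold glutamate receptors through their PDZ domains, Dlgap proteins (also called SAPAP or GKAP) join the MAGUK layer to the Shank layer, and Shank proteins connect through Homer to metabotropic glutamate receptors and to actin. CaMKII, the calcium- and calmodulin-dependent kinase that is among the most abundant proteins of this structure, binds several of these scaffolds. The comparison asks whether the RNAs for the partners of Shank3 differ when Shank3 itself is overexpressed.

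The Dlgap proteins reach Shank through their carboxyl ends, which fit the PDZ domain of Shank. The final 30 bases of the coding sequences of the 4 *Dlgap* genes are shown here because they encode that contact and show how alike the 4 genes are there. The capitals mark the 12 bases before the stop codon. The sequences were read from the longest complete coding transcript of each gene in GENCODE release M21 on GRCm38. All lie on the + strand, at chr17:70818205-70818234, chr8:14846679-14846708, chr4:127236339-127236368 and chr2:156762874-156762903, in the last exon of the transcript.
Dlgap1: tacatccccgaggcgCAGACCCGGCTCtga
Dlgap2: tacatccctgaggccCAGACGCGGCTCtga
Dlgap3: tacatccccgaggccCAGACCAGGCTGtga
Dlgap4: tatgtccccgaggccCAGACCAGGCTCtaa
Within the capitals, *Dlgap2*, *Dlgap3* and *Dlgap4* shared 11, 10 and 11 of 12 bases with *Dlgap1*. The end was the same in 8 of 10 complete coding transcripts of *Dlgap1*, 4 of 4 of *Dlgap2*, 3 of 3 of *Dlgap3* and 6 of 7 of *Dlgap4*. Over whole transcripts the members could be told apart by their sequence. At most 0.228% of the stretches of 31 bases in any member, that of *Tanc2*, also occurred in another member or a *Shank* gene.

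Each library held between 28363967 and 29447717 normalized counts in all, of which the 38 genes made up between 1.58% and 1.77%. *Shank3* (ENSMUSG00000022623, on chromosome 15, 89499623 to 89560261) gave 8374, 8173 and 6791 normalized counts in the WT libraries, against 17470, 19004 and 16310 in *Shank3* TG. Every *Shank3* TG library lay above every WT library, and the fitted fold was 2.27 (95% interval 1.92 to 2.67). In limma's test its adjusted p-value was 0.0643, which became 0.000437 when the model held the replicate number. The cortical neuron markers *Slc17a7* and *Tbr1* had at least 4262 normalized counts in every library, while the 7 markers of striatal neurons, some of which cortical neurons also express, summed to 4350 to 4767 and ranged in mean from 14.3 to 1977. The summed markers of excitatory neurons ranged from 78824 to 83801 in *Shank3* TG and from 73846 to 77680 in WT (0 of 7 genes called in limma's test, and 0 at an unadjusted p under 0.05). Of these 7 genes, 4 were higher and 3 lower in *Shank3* TG, and their median fitted difference was 0.021 (log2). *Slc17a7* made up most of each sum, with means of 43582 in *Shank3* TG and 39671 in WT. It was the only 1 of the 7 without overlap between genotypes. The summed markers of oligodendrocytes ranged from 70011 to 92151 in *Shank3* TG and from 105686 to 107596 in WT (0 of 6 called in limma's test, 5 of 6 at an unadjusted p under 0.05, 6 of 6 with the replicate block, and 1 called with an empirical null). Those of leptomeningeal cells ranged from 3835 to 4505 and from 3345 to 3789 (0 of 6 called in limma's test or with that null, 3 of 6 at an unadjusted p under 0.05 and 4 of 6 with the block). The summed markers of inhibitory neurons, astrocytes, microglia, endothelial cells and striatal neurons overlapped between genotypes and differed by -3.19% to 2.26%. No marker of these lists was at 0, and their part in the differences described here was not tested.

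None of the 38 partner genes passed the test between genotypes. In limma's two-sided test with a threshold of 0.05 on the adjusted p-value, 0 were higher and 0 were lower in *Shank3* TG, as were 0% and 0% of the 16714 genes tested. This test did not call *Shank3* itself either, so that its count of 0 says little about the 38 genes. The study used DESeq2 with an empirical null on the same libraries and reported called genes, *Shank3* among them. At an unadjusted p-value under 0.05 there were also 0 of 38, beside 2.01% of all genes tested. With the replicate number as a block, 0 of 38 passed the adjusted threshold (0.00598% of all genes) and 0 the unadjusted (4.98%). With an empirical null, in which the test statistics are divided by their observed width, 0 passed again (0.156% of all genes), and the lowest adjusted p-value of a member was 0.704. The log2 fold changes ran from -0.19 for *Tanc1* to 0.12 for *Camk2d*, with a median of 0.03 beside -0.0037 over all genes tested. There were 26 genes with a higher fitted mean in *Shank3* TG and 12 with a lower mean, and 48.6% of all genes were higher. Only 1 gene, *Tanc1*, had *Shank3* TG libraries that did not overlap the WT libraries, beside 6.02% of all genes. At all 3 replicate numbers 4 genes were higher in *Shank3* TG and 2 were lower, so that 6 of 38 kept a direction, beside 24.8% of all genes.

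A p-value above the threshold does not show that 2 groups are alike, so the width of the intervals was examined. The 95% interval of the difference lay within 1.5-fold in either direction for 36 of the 38 genes, the exceptions being *Dlgap4* and *Nrgn*. It lay within 1.2-fold for 17 genes. With the replicate block the intervals were narrower and lay within 1.5-fold for 38 genes and within 1.2-fold for 34, the exceptions at 1.2-fold being *Homer3*, *Tanc1*, *Pick1* and *Grip2*. In both fits, the upper bounds of all 38 genes lay under the lower bound for *Shank3*. The median standard error was 0.096 on the log2 scale without the block and 0.061 with it.

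**Figure D1:**
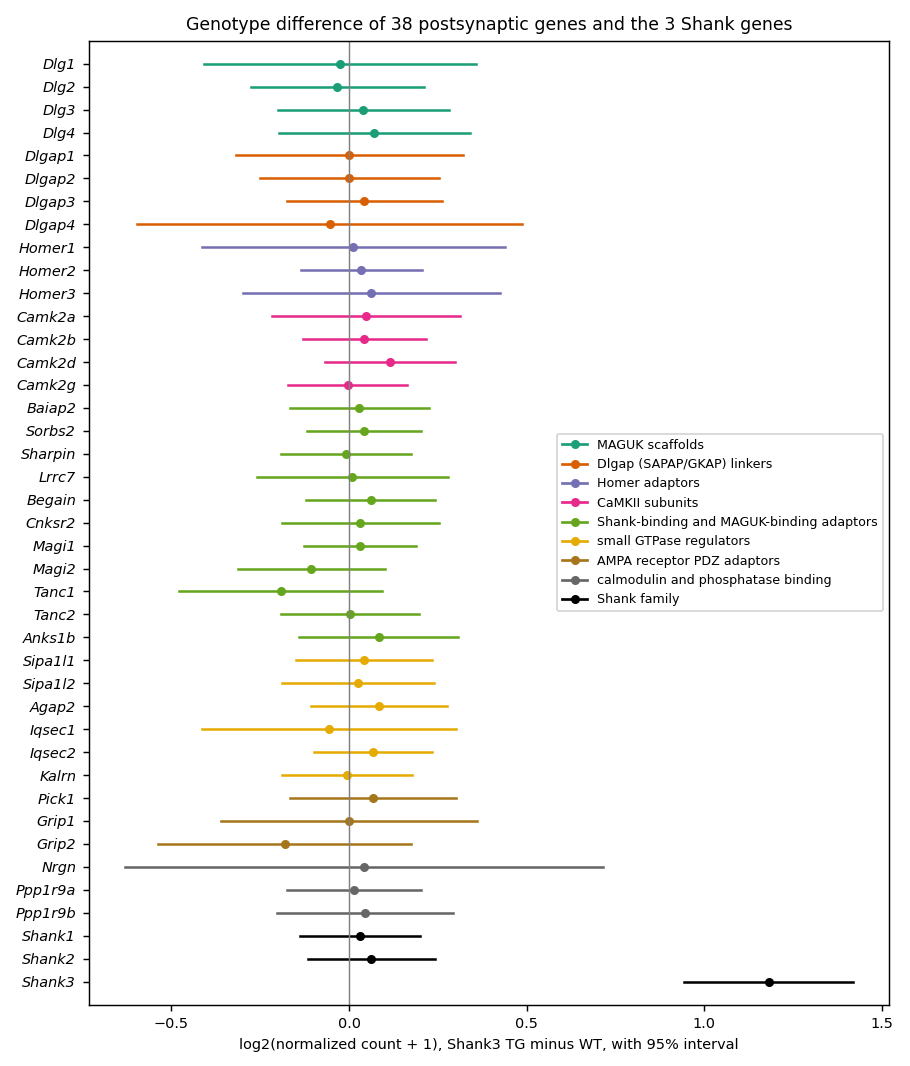
Difference between *Shank3* TG and WT on the log2(normalized count + 1) scale for the 38 partner genes, coloured by role, and for the 3 *Shank* genes. Points are fitted differences and lines their 95% intervals (limma, n = 3 libraries a genotype). All 38 intervals cross 0, and that of *Shank3*, from 0.94 to 1.42, lies to the right of all of them.

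The MAGUK genes *Dlg1* to *Dlg4* encode the scaffolds SAP97, PSD-93, SAP102 and PSD-95, and 2 were higher and 2 lower with none passing the test. *Dlg4* (ENSMUSG00000020886, on chromosome 11, 70016942 to 70047522), the principal scaffold of the mature synapse, gave 26764, 24802 and 20472 normalized counts in the WT libraries, against 26201, 26402 and 22763 in *Shank3* TG, a difference of 0.07 ± 0.12 (log2, standard error). The library numbered 3 was the lowest of its genotype in both groups, and the groups overlapped. *Dlg3* (on chromosome X, 100767722 to 100818410) gave 5777, 6405 and 5103 normalized counts in the WT libraries, against 6150, 6218 and 5363 in *Shank3* TG. *Dlg2* (on chromosome 7, 90476672 to 92449247), which spans the most genomic sequence of the 38 genes, gave 8675, 9291 and 7343 normalized counts in the WT libraries, against 8355, 8762 and 7549 in *Shank3* TG. *Dlg1* (on chromosome 16, 31663443 to 31875129) gave 5866, 6034 and 4151 normalized counts in the WT libraries, against 5704, 5611 and 4358 in *Shank3* TG. In each of these genes too, the libraries numbered 3 were the lowest and the genotypes overlapped. The log2 fold changes of *Dlg1*, *Dlg2* and *Dlg3* were -0.025, -0.033 and 0.040. Summed over the 4 genes, WT held 43561 ± 5629 normalized counts (SD, n = 3) and *Shank3* TG held 44478 ± 3862.

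The Dlgap genes encode the linkers between the MAGUK and Shank layers, the direct partners of the Shank PDZ domain whose coding ends are shown above. *Dlgap1* (ENSMUSG00000003279, on chromosome 17, 69969073 to 70821413) gave 16096, 17659 and 20611 normalized counts in the WT libraries, against 17011, 15902 and 21663 in *Shank3* TG. *Dlgap2* (on chromosome 8, 14095865 to 14847680) gave 2267, 2579 and 2839 normalized counts in the WT libraries, against 2435, 2392 and 2849 in *Shank3* TG. In both genes the library numbered 3 was the highest of each genotype, and the fitted log2 fold changes, 0.00012 and -8.4e-05, were among the closest to 0 of the 38. *Dlgap3* (on chromosome 4, 127169204 to 127237022) gave 12438, 10568 and 10003 normalized counts in the WT libraries, against 11735, 10967 and 11175 in *Shank3* TG, for a fitted log2 difference of 0.043 with a standard error of 0.094. *Dlgap4* (on chromosome 2, 156613705 to 156764363) gave 7353, 8285 and 13067 normalized counts in the WT libraries, against 7511, 8246 and 11464 in *Shank3* TG. TG-3 and WT-3 stood well above the other 4 libraries, and the interval of its genotype difference, from -0.60 to 0.49 on the log2 scale, was among the widest. With the replicate block that interval ran from -0.19 to 0.083. The sum of the 4 genes was 41116 ± 5259 in *Shank3* TG and 41255 ± 4584 in WT.

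Homer proteins bind the proline-rich part of Shank and group I metabotropic glutamate receptors. *Homer1* (ENSMUSG00000007617, on chromosome 13, 93299635 to 93405129) gave 6397, 9147 and 5920 normalized counts in the WT libraries, against 7426, 8203 and 5832 in *Shank3* TG. The libraries numbered 2 were the highest and those numbered 3 the lowest in both genotypes, with WT-1 close to WT-3. These values sum the long forms that cross-link the scaffold and the short, activity-induced form Homer1a, which a gene-level table does not separate. *Homer2* (on chromosome 7, 81600481 to 81707527) gave 2690, 2686 and 2900 normalized counts in the WT libraries, against 2724, 2771 and 2982 in *Shank3* TG. It was the steadiest of the family and was higher in *Shank3* TG at all 3 replicate numbers, by 0.018, 0.045 and 0.040 on the log2 scale, within a 95% interval from -0.14 to 0.20 for the fitted difference. *Homer3* (on chromosome 8, 70282827 to 70294361), the lowest in normalized counts of the 38 genes, gave 129, 145 and 137 normalized counts in the WT libraries, against 129, 130 and 174 in *Shank3* TG. Only TG-3 stood apart for *Homer3*, and without it the log2 fold change moved from 0.063 to -0.076.

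The 4 CaMKII genes encode the α, β, δ and γ subunits. *Camk2a* (ENSMUSG00000024617, on chromosome 18, 60925618 to 60988152), the forebrain α subunit, gave 110399, 102685 and 125976 normalized counts in the WT libraries, against 117895, 104978 and 127170 in *Shank3* TG. Each *Shank3* TG library lay above the WT library of the same number, by 0.095, 0.032 and 0.014 on the log2 scale, which is less than the spread between libraries of the same genotype. *Camk2b* (on chromosome 11, 5969644 to 6066362) gave 21971, 20712 and 19326 normalized counts in the WT libraries, against 21431, 21612 and 20753 in *Shank3* TG. *Camk2g* (on chromosome 14, 20734875 to 20794088) gave 8645, 8186 and 7737 normalized counts in the WT libraries, against 8490, 8008 and 7987 in *Shank3* TG. Their log2 fold changes of 0.043 and -0.0040 were within the overlap of the genotypes. *Camk2d* (on chromosome 3, 126596302 to 126846326), the δ subunit known chiefly from heart, gave 2249, 2328 and 2172 normalized counts in the WT libraries, against 2627, 2286 and 2405 in *Shank3* TG. Its log2 fold change of 0.12 (95% interval -0.067 to 0.30) was the highest of the 38 genes, and TG-2 lay under WT-2. Summed, the 4 genes had 148548 ± 10841 normalized counts in *Shank3* TG and 144129 ± 10676 in WT, and the ratio of *Camk2a* to *Camk2b* per kilobase was 6.72 ± 0.78 in *Shank3* TG and 6.72 ± 1.08 in WT (exact permutation test, p = 1.0).

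The 11 adaptors that bind Shank or the MAGUKs had a median log2 fold change of 0.029, with 8 higher and 3 lower. *Tanc1* (ENSMUSG00000035168, on chromosome 2, 59612042 to 59846149), a large ankyrin-repeat scaffold that binds PSD-95, gave 551, 558 and 579 normalized counts in the WT libraries, against 537, 540 and 411 in *Shank3* TG. All 3 *Shank3* TG libraries lay under the WT libraries, but TG-1 and TG-2 did so narrowly and TG-3 by a wide margin. The log2 difference was -0.036 between the libraries numbered 1, -0.046 between those numbered 2 and -0.49 between those numbered 3. The fitted log2 fold change was -0.19 (95% interval -0.48 to 0.094, adjusted p = 0.9999 in limma's test). Without TG-3 it was -0.062. Its paralogue *Tanc2* had 7043 ± 353 normalized counts in *Shank3* TG and 7044 ± 570 in WT (SD, n = 3).

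*Magi2*, an inverted MAGUK, was also lower in *Shank3* TG at all 3 replicate numbers, by a fitted -0.11 (95% interval -0.31 to 0.10), while the groups overlapped at 4153 ± 343 normalized counts in *Shank3* TG and 4471 ± 321 in WT (SD, n = 3). Further means are given in the same order, *Shank3* TG before WT. *Magi1* had 3254 ± 88 and 3187 ± 121 normalized counts. *Baiap2* encodes IRSp53, which curves membranes and binds both PSD-95 and Shank, and it had 8228 ± 447 normalized counts in *Shank3* TG and 8076 ± 648 in WT. *Sharpin*, named for its binding to Shank and also a subunit of the linear ubiquitin ligase, had 730 ± 32 and 734 ± 7.3 normalized counts. The interval of the *Sharpin* difference, from -0.19 to 0.17 on the log2 scale, kept it within 1.2-fold. *Sorbs2*, an SH3-domain adaptor on actin, had 8157 ± 329 and 7922 ± 310 normalized counts. *Lrrc7*, which encodes the CaMKII-binding protein densin, had 1935 ± 215 and 1923 ± 217 normalized counts. *Begain*, which encodes a protein on the guanylate kinase domain of PSD-95, had 4668 ± 130 and 4485 ± 352. *Cnksr2*, a scaffold of Ras signalling, had 8765 ± 652 and 8585 ± 816 normalized counts. The genotypes overlapped in each of these genes. *Anks1b*, whose product AIDA-1 binds PSD-95, had the largest positive difference of these adaptors, 8607 ± 613 normalized counts against 8143 ± 860, a log2 fold change of 0.083 (95% interval -0.14 to 0.31). It was higher in *Shank3* TG at all 3 replicate numbers, and the groups overlapped.

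Regulators of small GTPases set the actin content and receptor traffic of spines, and the 6 members of this kind had a median log2 fold change of 0.034. *Agap2*, which encodes an Arf GTPase-activating protein, had 34115 ± 938 normalized counts in *Shank3* TG beside 32252 ± 2618 in WT, for a fitted log2 difference of 0.084 (95% interval -0.11 to 0.28). *Iqsec1* and *Iqsec2* encode exchange factors for Arf proteins. *Iqsec2* had 7718 ± 453 and 7361 ± 219 normalized counts, above WT at each of the 3 numbers and with an interval from -0.10 to 0.23. *Iqsec1* varied more, with 9325 ± 2060 and 9581 ± 970 normalized counts, and ranged from 7654 in TG-2 to 11627 in TG-3. *Kalrn*, the Rac exchange factor kalirin, had 20232 ± 1311 and 20292 ± 859 normalized counts. The Rap GTPase-activating genes *Sipa1l1* and *Sipa1l2* had log2 fold changes of 0.042 and 0.025. The genotypes overlapped in each of the 6 genes.

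*Pick1*, *Grip1* and *Grip2* encode PDZ proteins that bind the tail of AMPA receptor subunits. *Grip2* (ENSMUSG00000030098, on chromosome 6, 91761509 to 91827250) gave 1325, 1220 and 1015 normalized counts in the WT libraries, against 912, 1286 and 959 in *Shank3* TG. TG-1 and TG-3 were the lowest libraries and TG-2 lay among the WT libraries, with a log2 fold change of -0.18 (95% interval -0.54 to 0.18). *Grip2* was the only member to pass the unadjusted threshold under any alternative, and it did so without TG-2, where its log2 fold change was -0.33. *Grip1* had 640 ± 87 and 643 ± 119 normalized counts, and *Pick1* had 1353 ± 113 and 1292 ± 122 normalized counts. For *Pick1* the difference was -0.19 between the libraries numbered 1 and 0.31 between those numbered 3.

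*Nrgn* encodes neurogranin, which holds calmodulin near the postsynaptic membrane, and *Ppp1r9a* and *Ppp1r9b* encode neurabin and spinophilin, which bind actin and protein phosphatase 1. *Nrgn* (ENSMUSG00000053310, on chromosome 9, 37544492 to 37552904) gave 42858, 40016 and 75556 normalized counts in the WT libraries, against 48536, 39612 and 73600 in *Shank3* TG. The spread between libraries of the same genotype was the widest of the 38 genes, with TG-3 and WT-3 highest, and the genotype interval ran from -0.63 to 0.71 on the log2 scale. With the replicate block it ran from -0.12 to 0.20. *Ppp1r9b* had 29601 ± 2146 and 28790 ± 3562 normalized counts, and *Ppp1r9a* had 10462 ± 269 and 10381 ± 880.

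The levels of the partners were compared per kilobase of summed exon sequence, as means of all 6 libraries. *Nrgn* had 36726 ± 11529 normalized counts per kilobase (SD, n = 6), rank 16 of the 18231 genes with a known length, and *Camk2a* had 15385 ± 1405, rank 26. *Ppp1r9b* with 5744 and *Agap2* with 5585 came next, followed by *Dlgap3* with 2466, *Camk2b* with 2298 and *Dlg4* with 1854. *Homer3* with 40.9 and *Tanc1* with 36.3 were the lowest.

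Within families the order was *Dlg4* (1854 ± 188 normalized counts per kilobase), *Dlg3* (999 ± 88), *Dlg2* (512 ± 46) and *Dlg1* (492 ± 76). The values of *Dlg2* and *Dlg1* lay within their spread, while *Dlg4* and *Dlg3* were separated from each other and from the rest in all 6 libraries. For the linkers it was *Dlgap3* (2466 ± 190), *Dlgap4* (1103 ± 280), *Dlgap1* (1015 ± 135) and *Dlgap2* (416 ± 39). *Dlgap4* and *Dlgap1* lay within their spread and changed places when the longest transcript was used as the length. *Homer1* (597 ± 112) lay above *Homer2* (221 ± 9.7) and *Homer3* (40.9 ± 5.0), and *Camk2a* above *Camk2b* (2298 ± 103), *Camk2g* (1277 ± 53) and *Camk2d* (104 ± 7.1), without overlap between libraries. The orders of the MAGUK, Homer and CaMKII genes were the same with the longest transcript. Each member's share of its own family per kilobase overlapped between genotypes (exact permutation tests, p from 0.3 to 1.0). *Dlg4* made up 48.6% ± 0.32 of the MAGUK sum in *Shank3* TG and 47.5% ± 1.9 in WT (exact permutation test, p = 0.4), and *Homer1* 68.9% ± 5.2 and 69.2% ± 5.2 of the Homer sum (exact permutation test, p = 1.0).

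**Figure D2:**
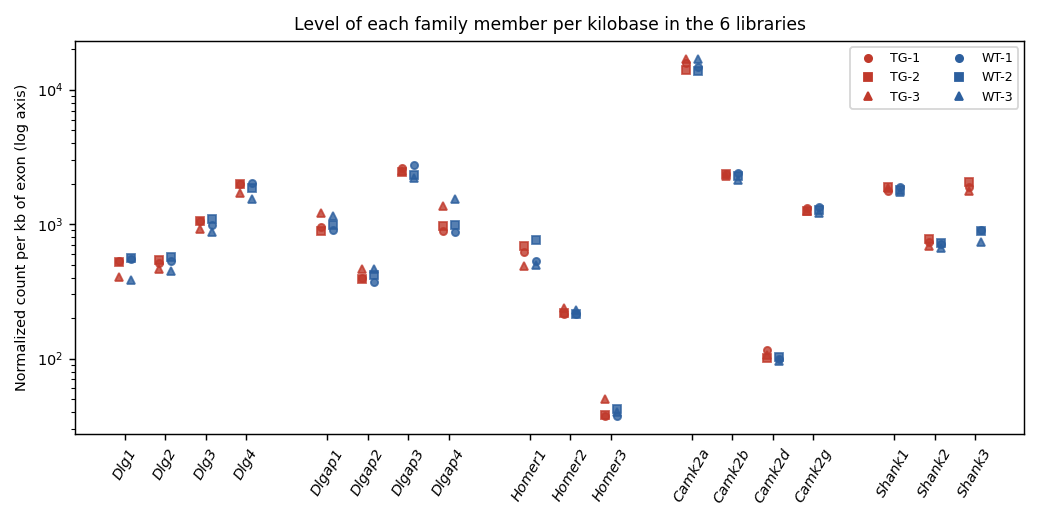
Normalized counts per kilobase of exon, on a log axis, of the MAGUK, Dlgap, Homer, CaMKII and Shank genes in each of the 6 libraries, with *Shank3* TG in red, WT in blue and marker shapes for the replicate numbers. The red and blue points lie at like heights in all 15 partner genes, and they separate for *Shank3*, at 847 ± 94 in WT and 1915 ± 147 in *Shank3* TG (SD, n = 3).

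The level of *Shank3* relative to its partners was then calculated in each library as a ratio of normalized counts per kilobase of summed exon. Such a ratio is not a ratio of transcript numbers. Its size depends on the length used, and it was not recalculated with the longest transcript. The length of the transgene RNA is not given in the sources used here. Relative to the MAGUK sum it was 0.467, 0.502 and 0.506 in *Shank3* TG, against 0.223, 0.217 and 0.227 in WT. The ratio was 2.21 times as high in *Shank3* TG, and its spread within a genotype was narrow, at 0.492 ± 0.022 and 0.222 ± 0.0051 (SD, n = 3). Relative to the Dlgap sum it was 0.394, 0.442 and 0.323 in *Shank3* TG and 0.186, 0.188 and 0.138 in WT, 2.26 times as high. Relative to the Homer sum it was 2.18, 2.19 and 2.29 in *Shank3* TG and 1.16, 0.873 and 0.968 in WT, 2.22 times as high. Relative to the CaMKII sum it was 0.0971, 0.116 and 0.0859 in *Shank3* TG and 0.0489, 0.0511 and 0.0364 in WT, 2.19 times as high. The genotypes did not overlap in any of the 4 ratios. The exact permutation test gave p = 0.1 for each, two-sided, which is the smallest p-value that 3 libraries against 3 allow. The partner sums that form the denominators overlapped between genotypes in all 4 families.

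**Figure D3:**
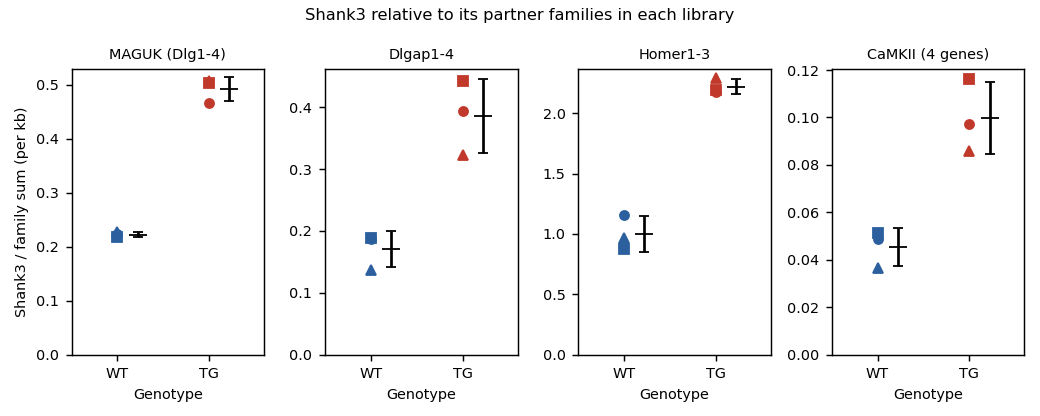
Ratio of *Shank3* to the summed level of each partner family, per kilobase, in each library (circles, squares and triangles for replicate numbers 1, 2 and 3), with the mean and SD of each genotype beside the points. In all 4 panels the 3 *Shank3* TG libraries lie above the 3 WT libraries, with means of 0.492 and 0.222 for the MAGUK sum.

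With *Shank1* and *Shank2* added to *Shank3*, the ratios to the 4 partner families were 1.30 to 1.34 times as high in *Shank3* TG, again without overlap. *Shank1* gave 20001, 18744 and 18191 normalized counts in the WT libraries, against 18543, 20010 and 19564 in *Shank3* TG, and *Shank2* gave 7665, 7830 and 7119 against 7929, 8351 and 7354. Both genes overlapped between genotypes. The whole Shank sum relative to the MAGUK sum was 1.16 ± 0.076 in *Shank3* TG and 0.884 ± 0.069 in WT, 1.31 times as high, and relative to the Homer sum 5.22 ± 0.31 and 3.98 ± 0.59, also 1.31 times as high. *Shank3* made up 42.6% ± 1.3 of the Shank sum in *Shank3* TG and 25.2% ± 1.4 in WT (exact permutation test, p = 0.1, the smallest possible).

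The partner genes differed more between the libraries numbered 3 and the others than between the genotypes. The median absolute difference between the libraries numbered 3 and those numbered 1 and 2 was 0.161 on the log2 scale, beside a median absolute genotype difference of 0.042, and the first was larger in 31 of the 38 genes. Over all genes tested these medians were 0.174 and 0.071, and the first was larger in 72.3% of genes. In 12 members the library numbered 3 was the highest of its genotype in both groups, and in 11 it was the lowest in both, together 60.5% beside 50.2% of all genes. No test was made of this split, and what sets the libraries numbered 3 apart was not tested.

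The 4 MAGUK genes lay on the same side of this split, and members of the other families lay on both. The libraries numbered 3 differed from the others by -0.45 for *Dlg1*, -0.27 for *Dlg4*, -0.24 for *Dlg2* and -0.23 for *Dlg3* on the log2 scale, and by -0.40 for *Homer1*. The same difference was 0.81 for *Nrgn*, 0.64 for *Dlgap4*, 0.35 for *Iqsec1*, 0.34 for *Dlgap1* and *Grip1*, 0.22 for *Camk2a* and -0.11 for *Dlgap3*. The other gene lists were set against the same split, with no test. All 10 immediate-early genes, which neuronal activity induces, were higher in the libraries numbered 3 than the mean of the others in both genotypes, with a median difference of 0.60 (log2). All 5 microglia markers were lower in both, with a median of -0.34, and 3 of 6 astrocyte markers were lower and 1 higher in both, with a median of -0.19. The medians of the other 6 cell type lists lay between -0.15 and 0.11. Of 12 genes for glutamate receptors and their auxiliary subunits, 6 were higher and 0 lower in both genotypes, with a median of 0.14. Of 37 further postsynaptic density partners, described below, 12 were higher and 17 lower in both, with a median of -0.032. Of all 16714 genes 5985 were higher and 6083 lower in both genotypes. The part of these lists in the differences of the members was not tested. The deviations of same-numbered libraries from their genotype means correlated over the 38 genes at 0.50, 0.61 and 0.84 for the numbers 1, 2 and 3, a description across genes that share libraries. For TG-1 with WT-2 and TG-2 with WT-1 they correlated at 0.42 and 0.42, so that the libraries numbered 1 and 2 were set apart from each other less than from those numbered 3.

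**Figure D4:**
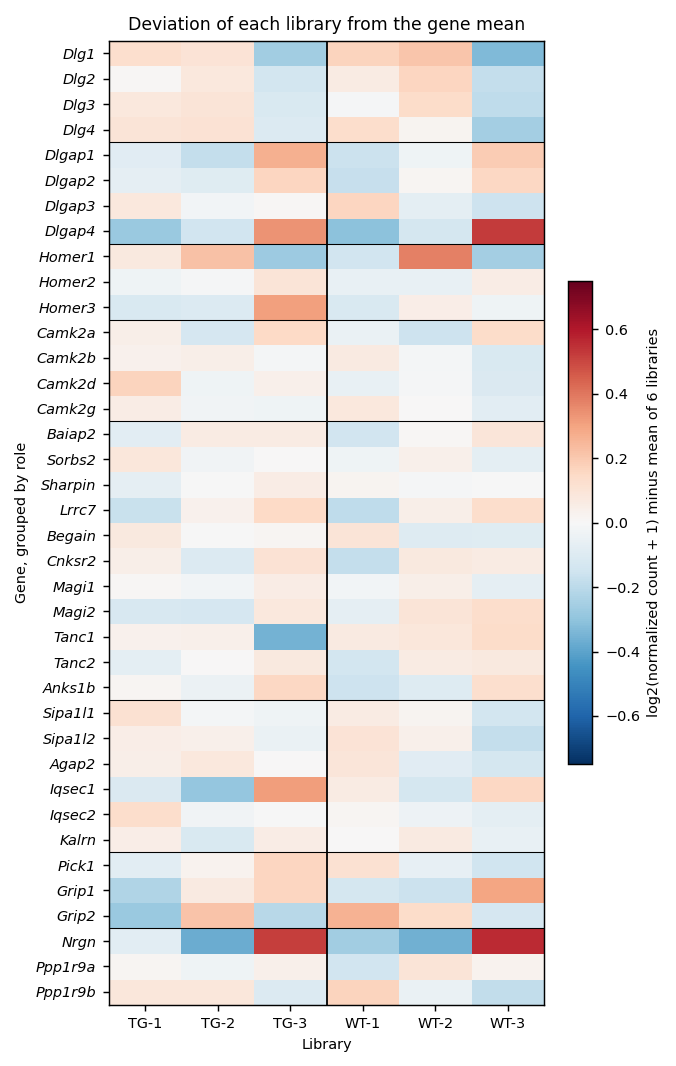
Deviation of each library from the mean of the 6 libraries, on the log2(normalized count + 1) scale, for the 38 genes in the order of their roles (red above the mean, blue below). The columns TG-3 and WT-3 resemble each other, with *Nrgn* and *Dlgap4* highest and *Dlg1* and *Homer1* among the lowest, while no row is red in 1 genotype and blue in the other throughout.

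The 38 genes share features that the list did not use. They are long, with a median span of 151 kilobases beside 22.7 for all genes tested, a median exon length of 9488 bases beside 4172, and 11 annotated transcripts beside 4. The shortest span was that of *Sharpin* at 4.07 kilobases and the longest that of *Dlg2* at 1973. Across the 38 genes the genotype difference had a Spearman correlation with the span of -0.43, beside -0.035 over all genes tested. The points share their 6 libraries, and the value is given as a description. The correlation with the GC content of the longest transcript was 0.19, beside 0.15 over all genes.

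Other genes of the same structure were examined as a list of 38 further partners, of which 37 were tested and *Cnksr1* fell under the filter. In limma's test 0 passed the adjusted threshold and 0 an unadjusted p-value under 0.05, with 28 higher and 9 lower in fitted mean and a median log2 fold change of 0.051. With the replicate block 0 passed the adjusted threshold and 1 of the 37 the unadjusted, beside 4.98% of all genes, so that the count was no higher than the background. This gene was *Wasf1*, with a log2 fold change of 0.17. Abundant genes of this list were *Camk2n1* (log2 fold change -0.060), which encodes an inhibitor of CaMKII, and the calmodulin genes *Calm2* (7.0e-05) and *Calm3* (0.066). Of the 37 genes tested, 2 lay wholly above WT in *Shank3* TG and 1 wholly below, beside 6.02% of all genes without overlap. Among them were *Abi1* and *Cyfip1*, which encode subunits of the WAVE complex. *Abi1* ranged from 2963 to 3020 normalized counts in *Shank3* TG and from 2767 to 2859 in WT, and *Cyfip1* from 2010 to 2192 and from 2196 to 2281. Their adjusted p-values in limma's test were 0.9999. Of the 12 genes for glutamate receptors and their auxiliary subunits, 0 passed the adjusted and 0 the unadjusted threshold in limma's test, for a median difference of 0.025 (log2). The most abundant were *Gria2* (-0.034), *Grin2b* (0.020), *Grin1* (0.027) and *Gria3* (0.035). Of 10 immediate-early genes 0 passed the adjusted and 0 the unadjusted threshold in limma's test, and the most abundant, *Egr1*, *Arc*, *Nr4a1* and *Junb*, had log2 fold changes of -0.074, -0.11, 0.019 and -0.055.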

How the data were processed

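The mPFC of 3 pools of *Shank3* TG and 3 pools of WT mice was sequenced, 2 mice a pool, with a stranded mRNA kit. The authors ran Salmon 0.9.1 with its GC bias correction against GRCm38, summed transcripts to genes with tximport in R 3.6.0 and divided them by size factors in DESeq2 1.19.11, and the versions also stand in the submitters' processing notes. The deposited values are this signal, normalized counts that are not whole numbers, so that reads were not recovered and no counting interval was given. Gene names, positions and lengths came from GENCODE release M21, in which 18231 of 18254 genes were found.

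The test took in the 16714 genes whose mean reached 5 normalized counts, on log2(normalized count + 1), which understates the change of low genes. The genotype alone was fitted in limma 3.58.1 (R 4.3.3; lmFit, eBayes with a trend) with two-sided p-values, Benjamini-Hochberg adjustment over all genes and a threshold of 0.05. The fit was tested on simulated data. Ratios and shares were compared with exact permutation tests of 3 libraries against 3. The replicate numbers were taken to pair the libraries, because their deviations from the genotype means correlated over all genes at 0.30, 0.33 and 0.62 for the numbers 1, 2 and 3. The correlation was 0.27 for TG-1 with WT-2 and 0.23 for TG-2 with WT-1, close to those of the matched numbers, and negative for all pairs of a library numbered 3 with another number. What the numbers stand for is not given in the sources used here, and p-values measure the spread between pools.

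The 38 genes, the other lists and the tests were chosen with earlier results of these data known. All 38 are named, with the value of each library for the MAGUK, Dlgap, Homer, CaMKII and Shank genes and for members without overlap between genotypes. The library values of *Grip2* and *Nrgn* were added after they had been seen, and so were *Wasf1* and the further partners named for not overlapping. Of each further list up to 4 of the most abundant genes are named, and some genes of these lists are not reported here. Other settings tried were a pseudocount of 0.1 or 5, a minimum mean of 50 or none, upper quartile and quantile scaling, eBayes without a trend or with the robust option, the replicate block, a term for the libraries numbered 3, an empirical null, each library left out, only the libraries numbered 1 and 2, and the longest transcript as length.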

Additional observations from a re-analysis of the deposited data

How the results depend on the processing

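The 38 genes gave 0 adjusted calls in either direction under all 18 alternatives to the fit, and the median log2 fold change of the 38 stayed between 0.0056, without TG-3, and 0.041, without TG-2. The number of the 38 with a higher mean in *Shank3* TG, 26 as reported, was 29 with upper quartile scaling, 25 with quantile normalization, 22 with only the libraries numbered 1 and 2, and 20 to 29 when each library was left out. The count at an unadjusted p under 0.05 with lower values in *Shank3* TG ranged from 0 to 1 when each library was left out, the 1 being *Grip2* without TG-2. The replicate block changed the call of *Shank3* (adjusted p = 0.000437 in limma's test, log2 fold change 1.18) and no other. *Shank3* also passed with the robust option (1.18, adjusted p = 0.0307), the term for the libraries numbered 3 (1.18, 0.000161), the empirical null (1.18, 4.46e-06) and only the libraries numbered 1 and 2 (1.14, 0.00804). Leaving out 1 library gave it 1.09 to 1.24, with adjusted p-values of 0.0481 without WT-3 and 0.154 to 0.703 without any of the others. *Camk2a* made up 17.6% of the summed level of the 38 genes per kilobase, and 20.3% with the longest transcript as length.

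Differences this close to 0 changed sign easily. With upper quartile scaling the log2 fold change was 0.0048 for *Dlgap2*, 0.00083 for *Camk2g* and 0.0047 for *Grip1*. With quantile normalization it was -0.029 for *Dlgap1*, 0.010 for *Dlgap2*, -0.010 for *Tanc2*, 0.0081 for *Grip1* and -0.0013 for *Ppp1r9a*. With only the libraries numbered 1 and 2 it was -0.036 for *Dlgap1*, -0.015 for *Dlgap3*, 0.012 for *Dlgap4*, -0.076 for *Homer3*, -0.017 for *Magi1*, -0.028 for *Sipa1l2*, -0.053 for *Pick1*, 0.067 for *Grip1* and -0.0075 for *Shank1*. When each library was left out in turn, the sign changed for 27 members, whose log2 fold changes then ranged from -0.085 to 0.077 for *Dlgap2*, -0.24 to 0.19 for *Dlgap4*, -0.11 to 0.20 for *Homer1*, -0.039 to 0.024 for *Sharpin*, -0.017 to 0.082 for *Sipa1l1*, -0.082 to 0.15 for *Grip1*, -0.044 to 0.036 for *Camk2g*, -0.084 to 0.10 for *Lrrc7*, -0.23 to 0.074 for *Iqsec1*, -0.036 to 0.050 for *Kalrn*, -0.20 to 0.10 for *Dlg1*, -0.13 to 0.040 for *Dlg2*, -0.13 to 0.10 for *Dlgap1*, -0.0050 to 0.071 for *Homer2*, -0.076 to 0.14 for *Homer3*, -0.020 to 0.13 for *Camk2a*, -0.050 to 0.092 for *Cnksr2*, -0.067 to 0.040 for *Tanc2*, -0.21 to 0.33 for *Nrgn*, -0.054 to 0.067 for *Ppp1r9a*, -0.035 to 0.081 for *Baiap2*, -0.045 to 0.12 for *Dlg3*, -0.040 to 0.15 for *Dlg4*, -0.022 to 0.13 for *Dlgap3*, -0.0047 to 0.088 for *Camk2b*, -0.057 to 0.083 for *Sipa1l2* and -0.036 to 0.14 for *Ppp1r9b*.

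Each difference rests on 3 pools a genotype, and the 95% interval lay within 1.2-fold for 17 of the 38 members without the replicate block and for 34 with it. The table sums the transcripts of a gene, so that a shift between isoforms would not be seen, and RNA levels say nothing of the amount of protein at the synapse. The cause of the sign changes was not tested.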
